A study of Mus musculus with 12 samples.

Results

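The 53 genes described here form the mitosis and G2/M program of the cell cycle. They were taken by name as a fixed list of genes that drive entry into mitosis, build the kinetochore and spindle, hold or release anaphase, and divide the cell. All 53 were found among the 55487 genes of the deposited tables, and all 53 passed the filter on low counts that left 16649 genes to be tested. RNA was sequenced from mouse bone marrow LSK cells, a gate defined by the absence of lineage markers and the presence of Sca1 and c-Kit, which holds the haematopoietic stem cells and early progenitors. The 12 libraries fall into 3 genotypes of 4 libraries each: Yy1+/+, the wild type control; Yy1-/-, with both copies of the gene for the zinc finger transcription factor YY1 deleted; and Yy1-/- Smc3+/-, which in addition has a deletion of 1 copy of Smc3, a subunit of the cohesin ring. What drives the deletion, and the strain, sex and age of the mice, are not given in the sources used here. Because the labels do not state that the libraries of a genotype came from separate animals, p-values measure only the spread between these libraries, which may in part be technical.

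Entry into mitosis is set by the kinase Cdk1 with its cyclins A and B, which the Cdc25 phosphatases activate and the Wee1 kinase restrains. Until every kinetochore has bound spindle microtubules, the spindle checkpoint withholds Cdc20 from the anaphase-promoting complex, the ubiquitin ligase that then marks securin and cyclin B for destruction and so frees separase to cut cohesin. Most genes of the program are transcribed late in the cycle from promoters that carry a CHR element (cell cycle genes homology region, TTTGAA or its variant TTTAAA) and CCAAT boxes, where the DREAM complex represses them in resting cells and MuvB with B-Myb and Foxm1 activates them in G2. Resting stem cells carry little of this mRNA, and cycling progenitors carry more.

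The promoters of the program are shown first, because most of those on record carry a CHR form, a CCAAT box or both. In RefSeq (GRCm38.p6), 45 of the 53 members had at least 1 promoter entry, 50 promoters in all, each reaching from 250 bases before the start to 50 bases after it. TTTGAA stood on either strand in 33 of the 50 member promoters (66%), against 17.9% of all 32851 promoters of the same length and 16% of those of protein-coding genes. The variant TTTAAA stood in 18% of member promoters, against 13.2% of all. A CCAAT box stood in 80% of member promoters, against 37.4% of all, and a CCAAT box together with either CHR form in 62%, against 10.7%. The core of the YY1 motif, ATGGCG, was in 7 of the 50 member promoters (14%), against 8.93% of all promoters and 10.9% of those of protein-coding genes. Both strands were read, hits of different motifs shared a base in 2 of the 50 member promoters, and a match in letters is a description and not a site of binding.

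Stretches before the start of 7 members are printed 5′ to 3′ on the strand of the gene, with every CHR form, CCAAT box and ATGGCG, on either strand, in capitals (a CCAAT box on the other strand reads ATTGG, and a TTTGAA there reads TTCAAA). They were picked for a RefSeq start close to that of the gene model and for the range of motif layouts, and each ends before both starts.
Cdk1, the kinase of mitotic entry, chr10:69352939-69353038, minus strand: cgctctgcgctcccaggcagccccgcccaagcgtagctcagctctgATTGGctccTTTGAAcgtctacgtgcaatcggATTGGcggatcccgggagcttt
Ccnb2, cyclin B2, chr9:70421555-70421654, minus strand: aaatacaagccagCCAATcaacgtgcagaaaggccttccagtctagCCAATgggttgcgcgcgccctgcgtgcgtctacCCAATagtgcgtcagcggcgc
Plk1, Polo-like kinase, chr7:122159335-122159434, plus strand: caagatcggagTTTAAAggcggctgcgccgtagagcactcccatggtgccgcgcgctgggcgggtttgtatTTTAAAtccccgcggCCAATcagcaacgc
Cdc20, activator of the anaphase-promoting complex, chr4:118437353-118437452, minus strand: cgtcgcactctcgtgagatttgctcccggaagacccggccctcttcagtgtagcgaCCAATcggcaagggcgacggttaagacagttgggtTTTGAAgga
Kif11, the spindle kinesin Eg5, chr19:37376282-37376381, plus strand: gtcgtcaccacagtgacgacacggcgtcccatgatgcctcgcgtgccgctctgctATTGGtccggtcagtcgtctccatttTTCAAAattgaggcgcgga
Top2a, topoisomerase II alpha, chr11:99024190-99024249, minus strand: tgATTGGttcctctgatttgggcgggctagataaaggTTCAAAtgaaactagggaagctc
Nuf2, a subunit of the outer kinetochore, chr1:169531465-169531564, minus strand: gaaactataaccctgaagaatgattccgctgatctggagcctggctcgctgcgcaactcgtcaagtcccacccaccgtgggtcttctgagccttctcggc
The printed stretch of Ccnb2 held 3 CCAAT boxes, that of Plk1 the TTTAAA form, and that of Nuf2 none of the motifs. The stretches do not hold every hit of the promoters. Outside the printed bases, TTTGAA began at base -167 and base 5 from the start in Ccnb2 and at base 31 in Plk1. Further TTTGAA hits outside them began at base -15 in Cdk1 and base -179 in Top2a. All 7 genes rose in both mutant genotypes, as described next, and the part of the motifs in this was not tested. Of the 45 members with a promoter entry, 27 of the 30 with TTTGAA rose in Yy1-/-, as did 13 of the 15 without it, and the median log2 fold change was 0.98 in both sets. In the same comparison all 6 members with ATGGCG rose, as did 34 of the 39 without it.

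The labels were checked in the same counts. Yy1 mRNA was 33.9, 41.3, 34.2 and 34 CPM (a count as a share of its library, after TMM scaling) in Yy1+/+, but 0.407, 0.996, 5.01 and 12.2 CPM in Yy1-/- and 0.772, 0.795, 4.45 and 0.944 CPM in Yy1-/- Smc3+/-, so that 3 libraries labelled Yy1-/- or Yy1-/- Smc3+/- kept more than 2 CPM. Smc3 mRNA did not fall: its mean rose from 177 ± 25.2 CPM in the control (SD, n = 4) to 255 ± 45.2 with Yy1 deleted (log2 fold change 0.53) and to 301 ± 38.1 where the label adds Smc3+/- (0.76), so the Smc3+/- label is not visible in this mRNA. Of the 2 genes used in the sort, Kit fell, with a log2 fold change of -2.12 in Yy1-/- and of -1.65 in Yy1-/- Smc3+/- (edgeR adjusted p = 0.00101 and 0.00455). Ly6a, which encodes Sca1, did not pass the test (0.43 and 0.3). Of 12 genes of the LSK sort and of stem cells 11 fell in each mutant genotype, with median log2 fold changes over the 12 of -2.63 and -2.68. The summed level of the 12 was 977 to 1470 TPM (transcripts scaled by length and to a common sum) in Yy1+/+. It was 565 to 769 in Yy1-/- and 419 to 864 in Yy1-/- Smc3+/-. In every mutant library Ly6a, the gene that did not fall, made up most of this sum. Among markers of mature cells, 9 of 12 monocyte genes rose in Yy1-/- (789 to 2050 TPM in Yy1+/+, 525 to 5340 in Yy1-/-) and 5 in Yy1-/- Smc3+/- (677 to 1340), while 3 and 2 of 12 neutrophil genes rose (3200 to 13800, 5780 to 21400 and 4030 to 20300 TPM). Erythroid genes summed to 1990 to 3190 TPM in Yy1+/+, 109 to 1490 in Yy1-/- and 143 to 976 in Yy1-/- Smc3+/-, with 1 and 2 of 12 genes falling. Over all tested genes 14.5% and 11.3% were called higher and 15.6% and 13.4% lower in the 2 comparisons. The few neutrophil and erythroid calls alone are thus no result about those lists. The erythroid sum was nevertheless lower in every mutant library than in every Yy1+/+ library. In Yy1+/+ most of this sum came from Car2 (1200 to 1480 TPM) and Car1 (328 to 1160 TPM). The list itself was split, with 6 log2 fold changes above 0 and 6 below 0 in each comparison. They ran from -2.94 to 3.26 in Yy1-/- and from -4.03 to 3.04 in Yy1-/- Smc3+/-, and 0 genes were called higher. All mutant libraries lay below all controls for 5 and 6 of the 12 erythroid genes, against 2918 and 2925 of the 16649 genes tested. For the 9 megakaryocyte genes, of which Gp6 was at 0 in every Yy1+/+ and Yy1-/- Smc3+/- library, the sums were 513 to 572, 112 to 392 and 74 to 293 TPM, and 4 fell in each mutant genotype. The 12 B and plasma cell genes summed to 1120 to 3500, 1220 to 3710 and 2650 to 4560 TPM (Rag1 at 0 in every Yy1-/- library). Of the 10 that were tested, 0 rose and 1 fell in Yy1-/-, and 1 rose and 1 fell in Yy1-/- Smc3+/-. These few calls are no result about that list. The 10 T and NK cell genes summed to 357 to 585, 87.2 to 446 and 125 to 525 TPM. These sums hide that 6 of the 10 rose and 0 fell in each mutant genotype, with median log2 fold changes of 3.34 and 3.31. For the 6 mast cell, basophil and eosinophil genes the sums were 261 to 3210, 114 to 156 and 155 to 189 TPM (Epx at 0 in every Yy1-/- library). Of these 6, 2 fell and 0 rose in each mutant genotype, beside the shares over all tested genes given above. In each comparison 3 had a log2 fold change above 0 and 3 below 0. The part of these cell types in the results below was not tested, and in bulk samples a different share of cells of a type and a different amount of RNA per cell cannot be told apart.

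The program was higher in both mutant genotypes. In Yy1-/- against Yy1+/+, 46 of the 53 members rose and 0 fell, at an adjusted p under 0.05. Of all tested genes 30.1% were called in this comparison, 14.5% higher and 15.6% lower. In Yy1-/- Smc3+/- against Yy1+/+, 49 members rose and 0 fell. Here 24.7% of all tested genes were called, 11.3% higher and 13.4% lower. No member with a log2 fold change below 0 reached an unadjusted p under 0.05 in edgeR, and DESeq2 and limma also called 0 lower. The median log2 fold change of the members was 0.98 in Yy1-/- and 0.99 in Yy1-/- Smc3+/-, close to a doubling, and that of all genes tested was 0.01 and 0.02. The fold changes ranged from -0.31 to 1.8 and from -0.37 to 1.65, and 52 of 53 lay above 0 in each comparison, all except Spc24, although Pttg1 was at 0.0 in Yy1-/- on the TPM scale. All 4 mutant libraries lay above all 4 Yy1+/+ libraries for 38 members in Yy1-/- and for 46 in Yy1-/- Smc3+/-, against 13.4% and 14.7% of all tested genes. Both comparisons use the same 4 Yy1+/+ libraries, so the 46 members that rose in both do not count as independent evidence. Measured per length, the summed level of the 53 members was 4000 ± 864 TPM in Yy1+/+ (SD, n = 4), 6620 ± 833 TPM in Yy1-/- and 6880 ± 320 TPM in Yy1-/- Smc3+/-.

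**Figure D1:**
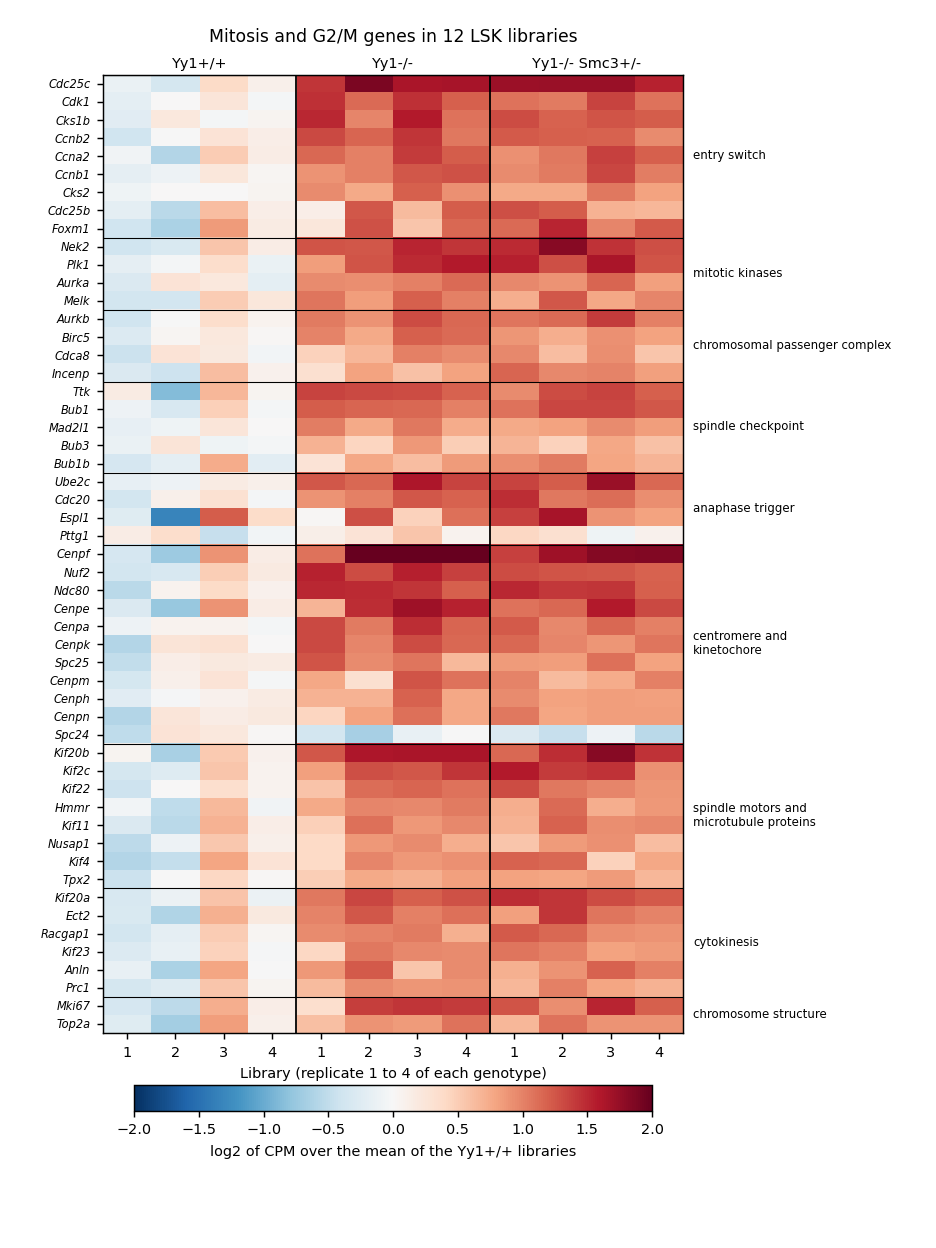
Heat map of the 53 members (rows, grouped by role) in the 12 libraries (columns, 4 replicates of each genotype); the colour is the log2 of CPM over the mean of the Yy1+/+ libraries, drawn at the end of the scale where it is beyond 2. All rows except Spc24 and Pttg1 turn red in most mutant libraries, and replicate 3 is the reddest Yy1+/+ library for 43 of 53 members.

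In the heat map by library, the increase runs through every role, and the Yy1+/+ libraries differ among themselves. On the TPM scale the same direction was seen with a smaller size: 34 members rose in Yy1-/- and 40 in Yy1-/- Smc3+/- by limma on log2(TPM + 1), with medians of 0.72 and 0.86. The calls not kept were those of Anln, Hmmr, Kif11, Nusap1, Prc1 and Top2a in both, of Cdca8, Cenpn, Incenp, Kif23, Mki67 and Tpx2 in Yy1-/-, and of Bub1b, Cdc25b and Foxm1 in Yy1-/- Smc3+/-. On that scale the median of all genes was shifted to -0.18 and -0.11, so the members stood 0.9 and 0.97 above it. The scale also moved the split of the calls over all genes, of which 48.3% were higher on CPM and 25% on TPM in Yy1-/-, and 45.8% and 27.2% in Yy1-/- Smc3+/-.

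The switch that starts mitosis rose nearly as a whole. Of its 9 genes, 7 rose in Yy1-/- (median log2 fold change 1.14) and 9 in Yy1-/- Smc3+/- (median 1.11). Cdk1 (chr10:69335146-69352938, minus strand, GRCm38) stood at 111, 127, 150 and 123 CPM in Yy1+/+, at 348, 278, 349 and 291 CPM in Yy1-/- and at 270, 260, 324 and 269 CPM in Yy1-/- Smc3+/-. Every mutant library was far above the highest Yy1+/+ library. In Yy1-/- it rose 2.48-fold, by 1.31 on the log2 scale with an SE of 0.13 (edgeR adjusted p = 6.81e-05). In Yy1-/- Smc3+/- it rose 2.2-fold, by 1.14 (SE 0.13, edgeR adjusted p = 0.00018). Cks1b, a small protein that docks Cdk1 onto its substrates, had the highest level per length of all members, with means of 357, 722 and 734 TPM in the 3 genotypes. Its CPM were 118, 161, 134 and 144 in Yy1+/+, 394, 272, 416 and 293 in Yy1-/-, and 343, 313, 332 and 319 in Yy1-/- Smc3+/-. These groups did not overlap, and the log2 fold changes were 1.3 (SE 0.15, edgeR adjusted p = 0.000171) and 1.23 (SE 0.15, edgeR adjusted p = 0.000254).

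Cdc25c, a phosphatase that removes the inhibitory phosphates of Cdk1, rose most within the switch. It was at 15.1, 13, 21.6 and 17.7 CPM in Yy1+/+, at 44.4, 61.1, 51.5 and 52.1 CPM in Yy1-/-, and at 54.1, 55, 54.5 and 48.3 CPM in Yy1-/- Smc3+/-. The groups did not overlap. The rise was 3.1-fold in the first, or 1.63 on the log2 scale (SE 0.17, edgeR adjusted p = 9.18e-05), and 3.15-fold in the second, or 1.65 (SE 0.17, edgeR adjusted p = 9.87e-05). Cdc25b, the related phosphatase that acts on Cdk1 at the centrosome, was less even, at 31.7, 24.8, 55.3 and 39.6 CPM in Yy1+/+, 39.6, 85.6, 55.9 and 84 CPM in Yy1-/-, and 88.9, 83.4, 58.5 and 57.5 CPM in Yy1-/- Smc3+/-. The Yy1-/- libraries overlapped the control and the others did not. The log2 fold change of 0.81 (SE 0.29) missed the threshold in Yy1-/- (edgeR adjusted p = 0.0525), and that of 0.93 (SE 0.29) passed it in Yy1-/- Smc3+/- (edgeR adjusted p = 0.0345). Foxm1, the transcription factor of late mitotic genes, was at 31.9, 27.1, 75.6 and 47.2 CPM in Yy1+/+, 49, 101, 61.5 and 92.7 CPM in Yy1-/-, and 91.9, 120, 82.2 and 97.8 CPM in Yy1-/- Smc3+/-. Here too the control overlapped Yy1-/-, through its replicate 3. The log2 fold change was 0.74 (SE 0.31, edgeR adjusted p = 0.0908) in Yy1-/- and 1.11 (SE 0.31, edgeR adjusted p = 0.0223) in Yy1-/- Smc3+/-. Without Yy1+/+ replicate 3, the edgeR adjusted p in Yy1-/- was 0.0238 for Cdc25b and 0.0148 for Foxm1, and for Cdc25b it was 0.0258 without Yy1-/- replicate 1. In Yy1-/- Smc3+/-, Cdc25b missed the threshold without Yy1+/+ replicate 1, 2 or 4 or mutant replicate 1 or 2 (edgeR adjusted p from 0.0718 to 0.0965). Foxm1 missed it without Yy1+/+ replicate 1, 2 or 4 or mutant replicate 2 (0.051 to 0.0685). The cyclins and the other Cks protein passed in both comparisons, with log2 fold changes of 1.1 and 1.08 for Ccnb1, 1.23 and 1.11 for Ccnb2, 1.14 and 1.09 for Ccna2, and 0.96 and 0.85 for Cks2.

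All 4 mitotic kinases of the list rose in both mutant genotypes, with medians of 1.14 and 1.19. Plk1, the Polo-like kinase that matures centrosomes and switches on Cdk1, was at 81.3, 89.6, 118 and 83.6 CPM in Yy1+/+, 164, 221, 260 and 275 CPM in Yy1-/-, and 271, 225, 286 and 220 CPM in Yy1-/- Smc3+/-. The groups did not overlap, although the Yy1-/- libraries spread widely. Plk1 rose 2.47-fold, by 1.3 on the log2 scale (SE 0.18, edgeR adjusted p = 0.000365), and 2.69-fold, by 1.43 (SE 0.18, edgeR adjusted p = 0.000275). Nek2, a kinase that separates centrosomes, was at 39.7, 42.5, 77.3 and 58 CPM in Yy1+/+, 125, 124, 150 and 142 CPM in Yy1-/-, and 148, 186, 143 and 128 CPM in Yy1-/- Smc3+/-. Again every mutant library was above the control, with log2 fold changes of 1.31 (SE 0.2, edgeR adjusted p = 0.000678) and 1.48 (SE 0.2, edgeR adjusted p = 0.000426). Aurka, the Aurora kinase of the spindle poles, rose by 0.99 and 0.95 on the log2 scale, and Melk by 0.98 and 0.9.

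The chromosomal passenger complex, which corrects faulty microtubule attachments and later guides cytokinesis, rose in all 4 parts (medians 0.89 and 0.88). Birc5, survivin, was at 87.6, 109, 123 and 108 CPM in Yy1+/+, 211, 180, 244 and 232 CPM in Yy1-/-, and 196, 176, 201 and 186 CPM in Yy1-/- Smc3+/-. There was no overlap, and the log2 fold changes were 1.02 (SE 0.13, edgeR adjusted p = 0.00023) and 0.83 (SE 0.13, edgeR adjusted p = 0.000773). The kinase subunit Aurkb rose by 1.08 and 1.13, and Cdca8, borealin, by 0.76 and 0.75. Incenp, the scaffold, rose by 0.58 in Yy1-/- (edgeR adjusted p = 0.0485) and by 0.93 in Yy1-/- Smc3+/- (edgeR adjusted p = 0.00637). The first call was lost without any 1 of 10 libraries, all except Yy1+/+ replicate 3 and Yy1-/- replicate 1 (edgeR adjusted p from 0.0583 to 0.135).

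Of the 5 genes of the spindle checkpoint, 4 rose in Yy1-/- (median 0.89) and 5 in Yy1-/- Smc3+/- (median 0.83). Mad2l1, the checkpoint protein that captures Cdc20, was at 78.2, 82.1, 103 and 87.5 CPM in Yy1+/+, 177, 147, 182 and 146 CPM in Yy1-/-, and 147, 152, 168 and 155 CPM in Yy1-/- Smc3+/-. Its groups did not overlap, and it rose by 0.89 (SE 0.12, edgeR adjusted p = 0.000271) and 0.83 (SE 0.12, edgeR adjusted p = 0.000507) on the log2 scale. Bub3, which docks the checkpoint onto kinetochores and had the highest level per length of the 5, was at 241, 317, 250 and 256 CPM in Yy1+/+, 429, 355, 482 and 370 CPM in Yy1-/-, and 422, 365, 451 and 395 CPM in Yy1-/- Smc3+/-. It rose less than most members, by 0.62 in each comparison (SE 0.13, edgeR adjusted p = 0.0048 and 0.00579), without overlap. Bub1b, the BubR1 subunit of the inhibitor of Cdc20, was at 101, 112, 213 and 110 CPM in Yy1+/+, 154, 218, 196 and 229 CPM in Yy1-/-, and 244, 261, 220 and 204 CPM in Yy1-/- Smc3+/-. A single control library, replicate 3, reached into both mutant groups. The log2 fold change was 0.57 in Yy1-/- (SE 0.22, edgeR adjusted p = 0.07) and 0.79 in Yy1-/- Smc3+/- (SE 0.22, edgeR adjusted p = 0.0216). Without that library the edgeR adjusted p in Yy1-/- was 0.00232. The call in Yy1-/- Smc3+/- was lost without Yy1+/+ replicate 1, 2 or 4 or mutant replicate 2 (0.0539 to 0.0695). Bub1 and Ttk, the checkpoint kinases, rose by 1.11 and 1.22 and by 1.19 and 1.11.

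The 4 genes of the anaphase trigger split into 2 that rose in both comparisons and 2 that passed in neither. Ube2c, the conjugating enzyme that works with the anaphase-promoting complex, was at 83.9, 87.3, 106 and 101 CPM in Yy1+/+, 223, 209, 288 and 239 CPM in Yy1-/-, and 241, 217, 312 and 208 CPM in Yy1-/- Smc3+/-. With no overlap, it rose 2.53-fold, by 1.34 on the log2 scale (SE 0.15, edgeR adjusted p = 0.000153), and 2.58-fold, by 1.37 (SE 0.15, edgeR adjusted p = 0.000154). Cdc20, which brings substrates to the complex, rose by 1.07 and 1.14. Pttg1 (chr11:43420250-43426251, minus strand) encodes securin, the inhibitor that these enzymes destroy. Pttg1 mRNA was at 45.6, 52.7, 30.0 and 39.6 CPM in Yy1+/+, 44.8, 49.9, 60.3 and 43 CPM in Yy1-/-, and 54.9, 51.2, 38.7 and 43.7 CPM in Yy1-/- Smc3+/-. The 3 groups overlapped throughout, and the log2 fold changes of 0.24 (95% interval -0.17 to 0.65, edgeR adjusted p = 0.374) and 0.17 (-0.25 to 0.58, edgeR adjusted p = 0.562) leave out a doubling. Espl1 (chr15:102296266-102324357, plus strand), separase itself, was at 30.5, 14.4, 83.3 and 46.5 CPM in Yy1+/+, 36.9, 88.5, 49.7 and 77.1 CPM in Yy1-/-, and 92.7, 113, 67.6 and 63.4 CPM in Yy1-/- Smc3+/-. Its control libraries alone ran from 14.4 to 83.3, so the intervals are wide. The log2 fold changes were 0.53 (95% interval -0.43 to 1.49, edgeR adjusted p = 0.394) and 0.95 (-0.01 to 1.91, edgeR adjusted p = 0.14), and the second passed without Yy1+/+ replicate 3 (edgeR adjusted p = 0.0279).

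Among the 11 genes of the centromere and kinetochore, 10 rose in each mutant genotype, with medians of 1.16 and 0.99. Cenpa, the histone variant that marks the centromere, was at 79.8, 90.5, 90.1 and 83.5 CPM in Yy1+/+, 214, 177, 238 and 192 CPM in Yy1-/-, and 201, 168, 191 and 173 CPM in Yy1-/- Smc3+/-. The control libraries lay close together and under every mutant library. Cenpa had the smallest p of the list, with log2 fold changes of 1.26 (SE 0.11, edgeR adjusted p = 4.28e-05) and 1.09 (SE 0.11, edgeR adjusted p = 9.53e-05). Cenpf (chr1:189640606-189688086, minus strand), a large coat protein of the outer kinetochore, had the lowest level per length of the 53 members in Yy1+/+, a mean of 4.54 TPM, and of the 53 the largest log2 fold change in Yy1-/-. It was at 24.8, 19.1, 58.9 and 35 CPM in Yy1+/+, 66.7, 145, 137 and 129 CPM in Yy1-/-, and 80.8, 102, 112 and 113 CPM in Yy1-/- Smc3+/-. There was no overlap, but 1 Yy1-/- library, replicate 1, lay near the highest control. The rise was 3.47-fold, or 1.8 on the log2 scale (SE 0.33, edgeR adjusted p = 0.00199), and 2.96-fold, or 1.57 (SE 0.33, edgeR adjusted p = 0.00485). Cenpe rose by 1.27 and 1.16, the second not past the threshold without Yy1+/+ replicate 1 (edgeR adjusted p = 0.0566). Of the inner kinetochore genes, Cenpk rose by 1.16 and 0.99, Cenpm by 0.88 and 0.83, Cenph by 0.85 and 0.85, and Cenpn by 0.76 and 0.84.

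Spc24 (chr9:21755442-21760303, minus strand) was the 1 member with a lower mean in both mutant genotypes. It encodes 1 of the 4 subunits of the Ndc80 complex, the rod that grips microtubules, in which Spc24 pairs with Spc25, and Ndc80 with Nuf2. Spc24 was at 50.8, 87.2, 84 and 73.7 CPM in Yy1+/+, 55.9, 45.9, 65.3 and 71.9 CPM in Yy1-/-, and 59.4, 52.8, 67.5 and 49.6 CPM in Yy1-/- Smc3+/-. The groups overlapped, and the log2 fold changes of -0.31 (95% interval -0.72 to 0.1, edgeR adjusted p = 0.245) and -0.37 (-0.78 to 0.05, edgeR adjusted p = 0.181) did not pass, nor did those on the TPM scale (-0.52, limma adjusted p = 0.0557, and -0.54, limma adjusted p = 0.0558). Its 3 partners, given here after their values had been seen, rose. Ndc80 was at 33.3, 50.7, 62.7 and 51.3 CPM in Yy1+/+, 137, 136, 130 and 110 CPM in Yy1-/-, and 138, 129, 130 and 111 CPM in Yy1-/- Smc3+/-, a log2 fold change of 1.37 and 1.36. Nuf2 was at 46.1, 47.3, 83.4 and 67.3 CPM in Yy1+/+, 171, 146, 173 and 152 CPM in Yy1-/-, and 146, 142, 140 and 134 CPM in Yy1-/- Smc3+/-, a change of 1.39 and 1.21. Spc25 was at 36.4, 56.3, 58.8 and 57.1 CPM in Yy1+/+, 122, 98.5, 107 and 79.9 CPM in Yy1-/-, and 92.3, 91.7, 110 and 89.8 CPM in Yy1-/- Smc3+/-, a change of 0.97 and 0.88. Each of the 3 was higher in every mutant library than in every control. The log2 ratio of Spc25 to Spc24 in TPM was -0.6 ± 0.13 in Yy1+/+ (SD, n = 4; -0.75 to -0.44), 0.62 ± 0.48 in Yy1-/- (-0.04 to 1.0) and 0.64 ± 0.11 in Yy1-/- Smc3+/- (0.52 to 0.75). That of Ndc80 to Spc24 was -1.5 ± 0.15, 0.16 ± 0.43 and 0.25 ± 0.15. Per length, Spc24 mRNA was thus above both Spc25 and Ndc80 in the control and, by the means, below both in the mutants, with at least 1 Yy1-/- library on the other side in each ratio. Between Ube2c and Pttg1 the log2 ratio was 0.65 ± 0.51, 1.71 ± 0.17 and 1.8 ± 0.46. All 3 ratios were picked for their contrast and carry no test.

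**Figure D2:**
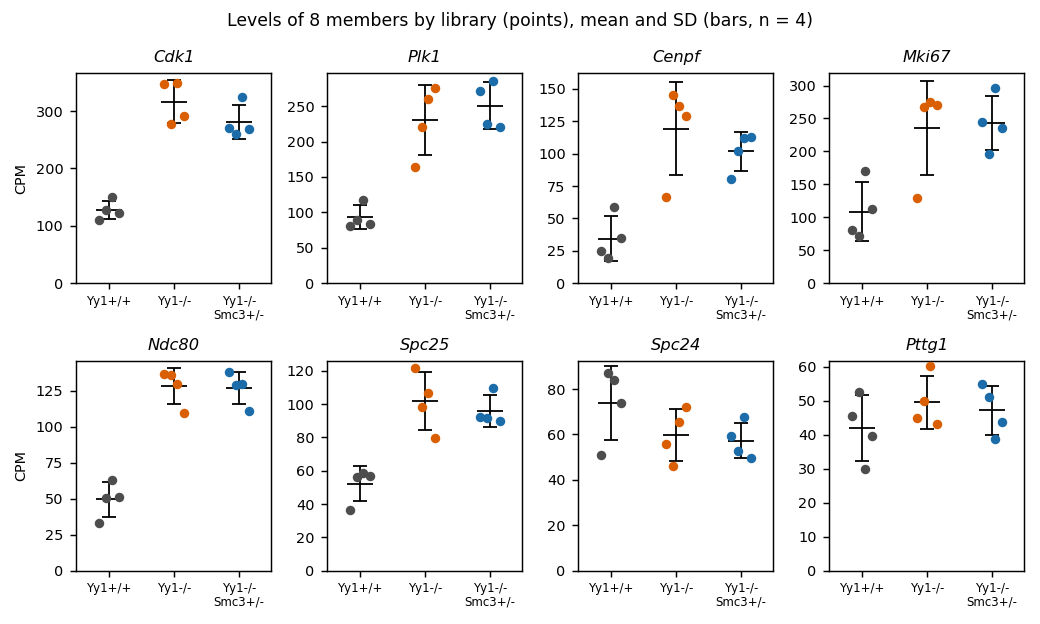
CPM of 8 members in each library (points), with the mean (long bar) and SD (whiskers, n = 4) of each genotype; every axis starts at 0. Cdk1, Plk1, Cenpf, Ndc80 and Spc25 lie above the control in every mutant library, Mki67 in all except Yy1-/- replicate 1, while Spc24 and Pttg1 overlap between genotypes.

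The plot of 8 members by library places the even rise of Cdk1 beside the overlap of Spc24 and Pttg1. Of the 8 spindle motors and microtubule proteins, 7 rose in each mutant genotype (medians 0.83 and 0.84). Kif20b, a kinesin of the midbody, rose most: it was at 39.9, 24.6, 55.5 and 40.8 CPM in Yy1+/+, 91.8, 119, 120 and 120 CPM in Yy1-/-, and 85.4, 108, 137 and 105 CPM in Yy1-/- Smc3+/-. Without overlap, its log2 fold changes were 1.49 (SE 0.22, edgeR adjusted p = 0.00061) and 1.44 (SE 0.22, edgeR adjusted p = 0.000803). Kif22, a chromokinesin that pushes chromosome arms, had the highest level per length of the list and was at 99.6, 134, 167 and 139 CPM in Yy1+/+, 198, 288, 297 and 281 CPM in Yy1-/-, and 328, 277, 260 and 244 CPM in Yy1-/- Smc3+/-. It rose by 0.98 (SE 0.17, edgeR adjusted p = 0.00171) and 1.04 (SE 0.18, edgeR adjusted p = 0.0014), also without overlap. Kif4, the chromokinesin of the anaphase midzone, did not pass in either comparison, at 27.2, 29.3, 70.8 and 49.6 CPM in Yy1+/+, 53.7, 80.6, 74.6 and 77.2 CPM in Yy1-/-, and 92.3, 90.7, 56.5 and 70.0 CPM in Yy1-/- Smc3+/-. Only the control replicate 3 reached into the mutant groups. The log2 fold changes were 0.69 (SE 0.29, edgeR adjusted p = 0.0862) and 0.81 (SE 0.29, edgeR adjusted p = 0.0577). Without that library both passed (edgeR adjusted p = 0.0152 and 0.0107), as did the second without Yy1-/- Smc3+/- replicate 3 (0.0478). Kif2c, a microtubule depolymerase, rose by 1.17 and 1.31, Hmmr, of the spindle poles, by 0.87 and 0.81, and Tpx2, which activates Aurka, by 0.67 and 0.75. Kif11, the motor that pushes the spindle poles apart, rose by 0.79 and 0.88. The first call was lost without any 1 of 6 libraries, Yy1+/+ replicates 1, 2 and 4 and Yy1-/- replicates 2, 3 and 4 (edgeR adjusted p from 0.0524 to 0.0735). The second was lost without Yy1+/+ replicate 1 or mutant replicate 2 (0.0574 and 0.0606). Nusap1, a microtubule bundler, rose by 0.7 and 0.69, calls lost without Yy1-/- replicate 3 in the first comparison (0.0632) and without Yy1+/+ replicates 1, 2 or 4 or mutant replicates 2 or 3 in the second (0.0534 to 0.0716).

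All 6 genes of cytokinesis rose in both mutant genotypes (medians 0.86 and 0.95). Kif20a, the kinesin that carries the passenger complex to the midzone, was at 84.1, 96.5, 156 and 96.8 CPM in Yy1+/+, 219, 267, 240 and 253 CPM in Yy1-/-, and 292, 282, 259 and 245 CPM in Yy1-/- Smc3+/-. It rose by 1.17 (SE 0.17, edgeR adjusted p = 0.000583) and 1.31 (SE 0.17, edgeR adjusted p = 0.000371), without overlap. The library kit does not mark the strand, and the exons of Kif20a share 1271 bases with those of Cdc23 on the other strand, so reads from the shared part cannot be told apart. Racgap1, the GTPase-activating subunit of centralspindlin, had the highest level per length of the list and was at 113, 128, 206 and 150 CPM in Yy1+/+, 281, 288, 300 and 239 CPM in Yy1-/-, and 342, 322, 276 and 271 CPM in Yy1-/- Smc3+/-. The groups did not overlap, and the log2 fold changes were 0.89 (SE 0.17, edgeR adjusted p = 0.00259) and 1.02 (SE 0.17, edgeR adjusted p = 0.00142). Ect2, the exchange factor that turns on RhoA at the cleavage furrow, rose by 1.01 and 1.0, Kif23 by 0.83 and 0.9, and Prc1, which bundles midzone microtubules, by 0.8 and 0.75. Anln, the scaffold anillin, rose by 0.82 and 0.86, calls that were each lost without any 1 of 6 libraries (edgeR adjusted p from 0.0562 to 0.0825). These were Yy1+/+ replicates 1, 2 and 4 in both comparisons, with Yy1-/- replicates 1, 2 and 4 in the first and Yy1-/- Smc3+/- replicates 2, 3 and 4 in the second. In all, the exons of 16 members share bases with another gene, the longest stretches after that of Kif20a being those of Prc1 (911 bases), Kif4 (832), Cdc25c (623), Ube2c (592) and Ccna2 (510). Counts that were not whole in every library, which marks reads divided between genes, were seen for 7 members: Ccnb1, Ccna2, Cks2, Nek2, Kif4, Kif20a and Prc1.

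Both genes of chromosome structure rose. Mki67, the Ki-67 protein that coats mitotic chromosomes and serves as a marker of cycling cells, was at 81.1, 71.7, 170 and 112 CPM in Yy1+/+, 129, 267, 275 and 271 CPM in Yy1-/-, and 245, 196, 296 and 235 CPM in Yy1-/- Smc3+/-. Replicate 1 of Yy1-/- lay within the control range and the other 7 mutant libraries above it. The log2 fold changes were 1.11 and 1.16 (SE 0.29, edgeR adjusted p = 0.0127 in each). The first call was lost on the TPM scale, and both were lost without the 3 libraries with residual Yy1 (edgeR adjusted p = 0.126 and 0.0578). Top2a, which untangles sister DNA, was at 201, 148, 423 and 256 CPM in Yy1+/+, 362, 442, 431 and 506 CPM in Yy1-/-, and 378, 503, 446 and 443 CPM in Yy1-/- Smc3+/-. Replicate 3 of the control overlapped both mutant groups, and the log2 fold changes of 0.76 (SE 0.26, edgeR adjusted p = 0.0424) and 0.78 (SE 0.26, edgeR adjusted p = 0.043) passed narrowly. These 2 calls were lost without any 1 of 11 libraries, all except Yy1+/+ replicate 3 (edgeR adjusted p from 0.0523 to 0.118).

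**Figure D3:**
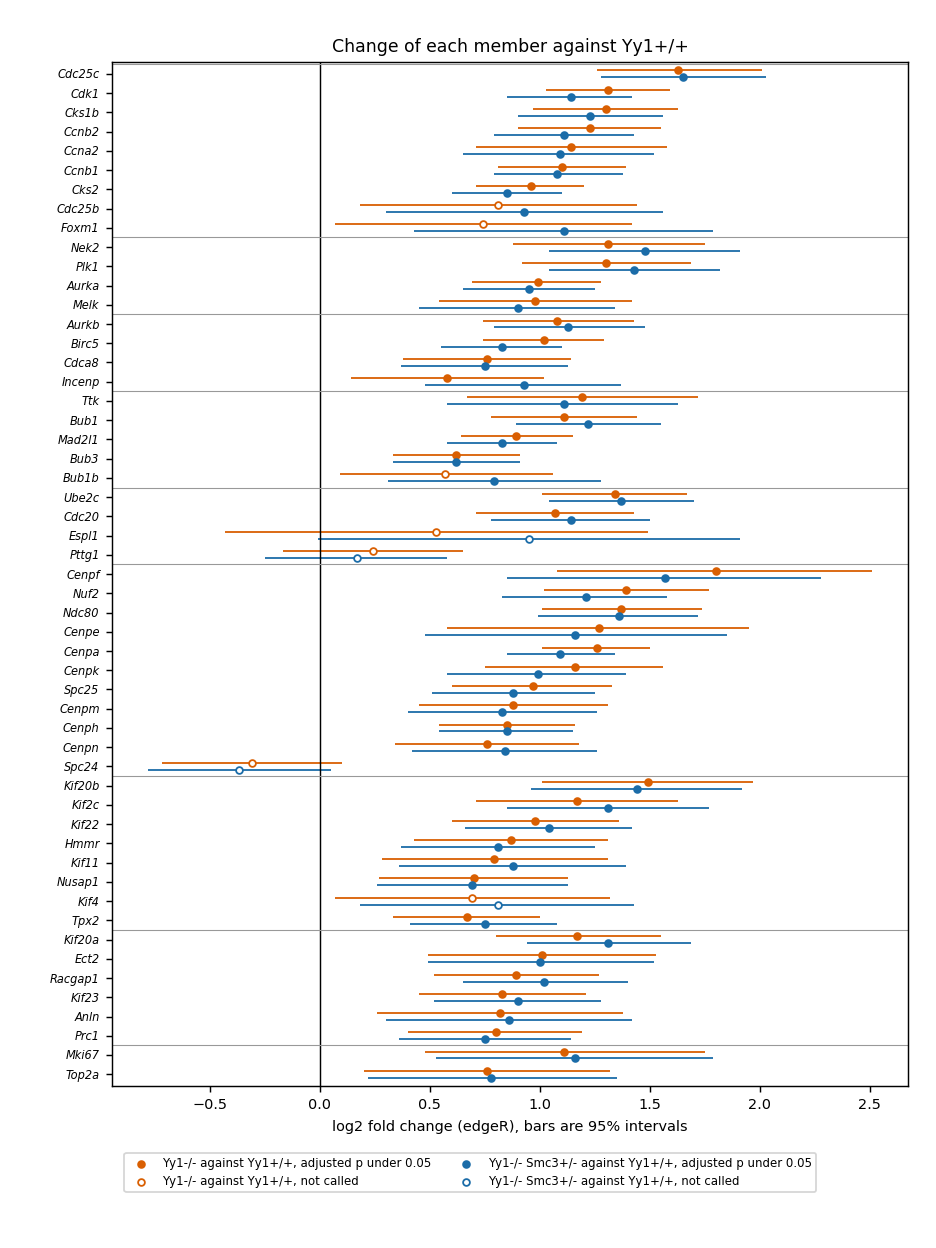
Log2 fold change of each member in Yy1-/- (orange) and Yy1-/- Smc3+/- (blue) against Yy1+/+, with 95% intervals from edgeR; filled points passed an adjusted p under 0.05 and open points did not. The members run from -0.31 to 1.8 and from -0.37 to 1.65, and Spc24 is the 1 member left of 0.

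In the plot of fold changes with intervals, the 2 mutant genotypes can be compared gene by gene, and the difference between them was tested directly. In Yy1-/- Smc3+/- against Yy1-/-, edgeR called 0 of the 53 members, and DESeq2 and limma called 0 as well. At an unadjusted p under 0.05 edgeR had 0 members, and the smallest, 0.111, was that of Incenp. Across all tested genes edgeR called 0.036%, of which 0.03% higher and 0.00601% lower, and 5.3% had an unadjusted p under 0.05, so few genes of any kind were called. The log2 fold changes ran from -0.23 (Cenpf) to 0.42 (Espl1). For 51 of the 53 members the 95% interval lay within a factor of 2 in either direction, and the other two were Espl1 (-0.54 to 1.38) and Foxm1 (-0.31 to 1.04), for which the interval reaches past a factor of 2. For Cdk1 the difference was -0.17 (-0.45 to 0.1), for Cenpa -0.16 (-0.41 to 0.08), and for Mki67 0.04 (-0.58 to 0.67). Incenp, named here for its libraries after they were seen, was the 1 member with all 4 Yy1-/- Smc3+/- libraries (289, 249, 256 and 227 CPM) above all 4 Yy1-/- libraries (161, 225, 192 and 224 CPM), where 1.13% of all tested genes had this order. Its difference of 0.35 (-0.09 to 0.79, edgeR adjusted p = 0.908) did not pass.

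The rest of the mitotic machinery, taken from lists that hold no member, moved less evenly. Over all tested genes 14.5% and 11.3% were called higher and 15.6% and 13.4% lower in the comparisons with Yy1+/+. Against those shares, the few genes that fell are no result about the lists of this paragraph. Of 32 further kinetochore and centromere genes, 17 rose in each mutant genotype (medians 0.53 and 0.61). The smallest p belonged to Sgo1, the shugoshin that guards centromeric cohesin. Sgo1 went from 36 ± 7.55 CPM in Yy1+/+ to 104 ± 12.2 in Yy1-/- and 110 ± 4.13 in Yy1-/- Smc3+/- (SD, n = 4; log2 fold changes 1.52 and 1.61). Ska1, of the complex that follows shrinking microtubules, rose by 1.38 and 1.28, and Cenpw, of the inner kinetochore, by 1.33 and 1.32. Cenpt, which links centromeric chromatin to the Ndc80 complex, fell by 0.96 in Yy1-/- (edgeR adjusted p = 0.00225) and had a log2 fold change of -0.44 in Yy1-/- Smc3+/- (edgeR adjusted p = 0.093). Of 32 further spindle and cytokinesis genes, 21 and 22 rose (medians 0.61 and 0.77), with Dlgap5 (1.39 and 1.45), Gtse1 (1.26 and 1.36) and Cdca3 (1.11 and 1.1). Haus2 (-0.75 and -0.58) and Haus7 (-0.84 and -0.99), subunits of the augmin complex that branches spindle microtubules, fell in both. Other augmin subunits, named after their values were seen, went the opposite way: Haus3 (0.53 and 0.46), Haus4 (0.5 and 0.49) and Haus6 (0.63 and 0.69) rose in both, and Haus5 (0.5) in Yy1-/- Smc3+/-. All 8 condensin genes had log2 fold changes above 0, and 5 and 6 rose (medians 0.56 and 0.74), with Ncaph at 1.22 and 1.29, Ncapg at 1.16 and 1.23, and Smc2 at 0.88 and 0.82.

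The counts of regulators of the switch are read against the 14.5% and 11.3% of all tested genes that were called higher and the 15.6% and 13.4% called lower. Of 13 genes that restrain or activate Cdk1 or that act on or in the phosphatases opposing it, 5 rose and 1 fell in Yy1-/- (median 0.36), and 2 rose and 1 fell in Yy1-/- Smc3+/- (median 0.28). The 1 that fell was Wee1, the kinase that keeps Cdk1 off. Its mean went from 159 ± 31.2 CPM in the control to 86.9 ± 14.9 and 95.7 ± 15.3 CPM in the mutants (SD, n = 4), with log2 fold changes of -0.87 (SE 0.17, edgeR adjusted p = 0.00295) and -0.73 (SE 0.17, edgeR adjusted p = 0.00875). Mastl, the Greatwall kinase that holds the opposing phosphatase PP2A down through its substrates, rose by 1.11 and 1.09. Its substrates Arpp19 (0.44) and Ensa (0.46) rose in Yy1-/-, as did Ppp1cc (0.42), a catalytic subunit of another phosphatase, PP1. The PP2A subunit Ppp2r2d rose in both (0.54 and 0.7). Ensa and Ppp2r2d are named after their values were seen, to complete the genes that rose. Of the 17 subunits and partners of the anaphase-promoting complex, 6 rose and 3 fell in Yy1-/- (median 0.27), and 3 rose and 0 fell in Yy1-/- Smc3+/- (median 0.19). Anapc15 rose by 0.78 and 0.88 and Anapc11 by 0.69 and 0.65, whereas Cdc23 (-0.47), Anapc7 (-0.41) and Anapc2 (-0.38) fell in Yy1-/-. Of 21 genes of the DREAM and MuvB complexes and their relatives, 3 rose and 2 fell in Yy1-/- (median 0.09), and 6 rose and 1 fell in Yy1-/- Smc3+/- (median 0.3). In Yy1-/- these shares are not above those over all genes. Mybl2, which encodes B-Myb, went from 68.6 ± 7.32 CPM to 130 ± 24.9 and 152 ± 14.7 (log2 fold changes 0.92 and 1.15), and Tfdp1, the partner of E2F proteins, rose by 0.7 in each, while Nfyc, a subunit of the factor that binds CCAAT boxes, rose by 0.43 and 0.55. E2f5, a repressing E2F, fell by 1.42 and 1.48 on the log2 scale, and Lin52, a MuvB subunit, fell by 0.76 in Yy1-/-. Of 12 centriole and centrosome genes, 1 and 2 rose, Tubg1 among them in both (0.59 and 0.62), and 1 fell in each. Cdk5rap2, which anchors microtubule nucleation at the centrosome, fell from 38.9 ± 16.9 CPM to 7.38 ± 3.68 and 8.89 ± 3.92 (log2 fold changes -2.4 and -2.13). No gene of these lists was called between the 2 mutant genotypes by edgeR.

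The genes of DNA replication, which acts in S phase, are set beside the program as another part of the cell cycle. Of the 53 genes of this list, 19 rose and 2 fell in Yy1-/- (median 0.34), and 22 rose and 0 fell in Yy1-/- Smc3+/- (median 0.36). Over all tested genes 14.5% and 11.3% were called higher and 15.6% and 13.4% lower. The 2 that fell are thus no result about the list. Dbf4, the activating partner of the Cdc7 kinase, rose by 1.21 and 1.09, Tipin, of the fork protection complex, by 1.04 and 0.95, and Cdc45, of the replicative helicase, by 0.73 and 0.59. Mcm2, a subunit of the same helicase, fell by 0.62, and Pold3 fell by 0.41, in Yy1-/-. The lists were not compared by a test, and their medians are set beside each other library by library.

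**Figure D4:**
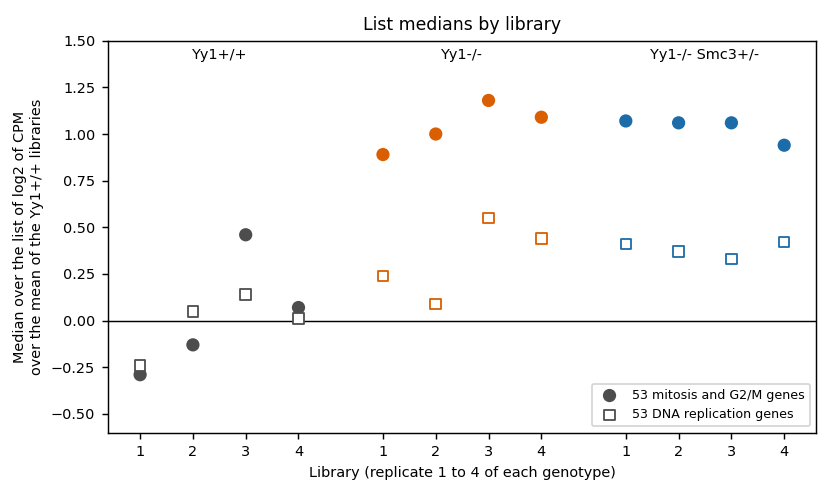
Median over each list of the log2 of CPM over the mean of the Yy1+/+ libraries, for the 53 mitosis and G2/M genes (filled circles) and the 53 DNA replication genes (open squares), in each of the 12 libraries. The mitotic median is -0.29 to 0.46 in Yy1+/+ and 0.89 to 1.18 in the mutants, and the replication median -0.24 to 0.14 and 0.09 to 0.55.

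In the plot of list medians by library, the mitotic median was -0.29, -0.13, 0.46 and 0.07 in Yy1+/+, 0.89, 1.0, 1.18 and 1.09 in Yy1-/-, and 1.07, 1.06, 1.06 and 0.94 in Yy1-/- Smc3+/-. Every mutant library was above every control by this measure. The 3 mutant libraries with residual Yy1 mRNA stood at 1.18, 1.09 and 1.06, and the other mutant libraries at 0.89 to 1.07. The replication median was -0.24, 0.05, 0.14 and 0.01 in Yy1+/+, 0.24, 0.09, 0.55 and 0.44 in Yy1-/-, and 0.41, 0.37, 0.33 and 0.42 in Yy1-/- Smc3+/-, with 1 mutant library, Yy1-/- replicate 2, inside the control range. When those 3 libraries were left out, an alternative chosen after seeing the data, 31 members rose in Yy1-/- (median 0.89) and 39 in Yy1-/- Smc3+/- (median 0.97), with fewer libraries in the test. The calls not kept were those of Anln, Cenpe, Kif11, Mki67, Nusap1, Prc1 and Top2a in both, of Cdca8, Cenpm, Cenpn, Ect2, Hmmr, Incenp, Kif23 and Tpx2 in Yy1-/-, and of Bub1b, Cdc25b and Foxm1 in Yy1-/- Smc3+/-.

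The controls themselves were not alike. Yy1+/+ replicate 3 was the highest control library for 43 of the 53 members and replicate 1 the lowest for 35. The summed level of the 12 neutrophil genes in Yy1+/+ replicates 1 to 4 was 13800, 10600, 3200 and 4360 TPM, lowest in the library where the members were highest. The monocyte, megakaryocyte, and T and NK cell sums were also lowest in that library, and the other marker sums were not. In Yy1-/-, the neutrophil sum was lowest in replicate 3 (5780 TPM), the highest library for 26 members. In Yy1-/- Smc3+/- it was highest in replicate 3 (20300 TPM), the highest library for 20 members. The part of these cells in the order of the libraries was not tested. Without Yy1+/+ replicate 3, 50 and 51 members rose (medians 1.13 and 1.17), and 49 and 51 had all mutant libraries above all remaining controls, against 15.4% and 16.9% of all tested genes. In Yy1-/-, replicate 1 was the lowest library for 27 members and had the fewest detected genes of the 12 libraries, 17214, where the others had 18557 to 20005.

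Members also moved together after the genotype means were removed, with the 12 libraries pooled and no genotype looked at alone. After each genotype's mean was taken from the log2 CPM of its libraries, the median correlation over the 1378 pairs of members was 0.5 across the 12 libraries, and 88.2% of the pairs were above 0, while the median over all pairs of tested genes was 0 with 49.9% above 0. This is a description, since the pairs share libraries, depth and scaling. Kif11 (median r with the other members 0.7), Prc1 (0.69) and Top2a (0.69) moved most with the rest. The lowest median correlations were those of Pttg1 (-0.43), Bub3 (-0.03), Cks1b (0.01) and Cenpa (0.18), and of these Bub3, Cks1b and Cenpa rose in both mutant genotypes.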

How the data were processed

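RNA of sorted LSK cells was purified with a column kit and copied to full-length cDNA with the SMART-Seq v4 kit, per the labels' protocols. The submitters' processing notes name STAR 2.5.2b, RSEM 1.3.0 and the build mm10. Per the file headers, the deposited tables hold RSEM expected counts (estimated reads of a gene, not scaled), TPM (scaled by length and to a common sum) and FPKM, which was not used. The summed expected count was 38671354 to 69086104 per library. It limits precision little beside the spread between libraries.

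The following was computed here. After rounding, the expected counts went into edgeR 4.0.16 (R 4.3.3), with filterByExpr at min.count 10 and min.total.count 15, TMM scaling, 1 quasi-likelihood model over all 12 libraries with a term per genotype, F tests, and Benjamini-Hochberg adjustment over 16649 genes. The default quasi-likelihood method of this version was used. In 1 data set simulated from these libraries the newer method made more false calls; it is an alternative. Rose and fell mean an adjusted p under 0.05. CPM compares libraries and TPM compares genes. Symbols and positions come from GENCODE M21 (GRCm38); 55094 identifiers matched with version, 300 with another version and 93 did not. Promoters come from RefSeq.

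The members and the gene lists were chosen with earlier results of these data known. Values in every library are given for the member of each role with the highest mean TPM and that with the smallest p in Yy1-/-, members that passed in 1 or neither comparison with the control, and the 3 largest and 3 smallest fold changes of each. Of the other lists, up to 3 called genes with the smallest p and up to 4 that fell are named. Replicate numbers follow the order of the samples. Alternatives were DESeq2 1.42.0, RLE factors, other filters, limma 3.58.1 on log2(TPM + 1), effective length as an offset, fits of 2 genotypes, and each library left out.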

Additional observations from a re-analysis of the deposited data

Results flagged for a closer look

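For the 24 members given in every library, each genotype was checked for a library far from the other three, and 6 of 72 groups had one; chance alone gives about 1 in 20. Cdk1 was at 324 CPM in Yy1-/- Smc3+/- replicate 3, above the other libraries of that genotype at 260 to 270 CPM. Cdc25c was at 48.3 CPM in Yy1-/- Smc3+/- replicate 4, below the others at 54.1 to 55 CPM. Bub1b was at 213 CPM in Yy1+/+ replicate 3, above the others at 101 to 112 CPM, and without this library it passed the test in Yy1-/-. The remaining 3 were all low values of Yy1-/- replicate 1: Kif20b at 91.8 CPM (others 119 to 120 CPM), Kif22 at 198 CPM (others 281 to 297 CPM) and Mki67 at 129 CPM (others 267 to 275 CPM).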

How the results depend on the processing

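Over 21 alternatives, the count of members that rose was 31 to 50 in Yy1-/- and 39 to 51 in Yy1-/- Smc3+/-, the count that fell was 0, and the median was 0.72 to 1.13 and 0.86 to 1.17. In both comparisons 31 members rose in every alternative, and 51 had log2 fold changes above 0 in every one, all except Pttg1 and Spc24. Leaving out each library in turn gave 42 to 50 and 41 to 51 members that rose, with medians of 0.89 to 1.13 and 0.86 to 1.17; a call changed for 9 and 10 members. Over all genes it gave 1828 to 2531 that rose and 2033 to 2653 that fell in Yy1-/-, 1335 to 1960 and 1666 to 2655 in Yy1-/- Smc3+/-, and 3 to 5 and 0 to 2 between the mutants, where 0 members were called and the median was -0.06 to 0.03. On log2(TPM + 1), 1445 genes rose and 4327 fell in Yy1-/-, and 3480 fell in Yy1-/- Smc3+/-, against 2420, 2595 and 2233; the cause was not tested. Between the mutants, where 5 genes rose and 1 fell, 0 fell with effective length as an offset, with only 2 genotypes in the fit, with the newer quasi-likelihood method and on log2(TPM + 1); DESeq2 called 34 higher and 19 lower, and leaving out the libraries with Yy1 above 2 CPM gave 46 and 123 (chosen after seeing the data; the cause was not tested). No paired analysis was possible because the replicate numbers follow sample order and pair no libraries.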
